A study of Mus musculus with 4 samples.

Results

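The 86 genes described here were the rows of a mouse testis count table whose symbols begin with Rpl or Rps and a digit, together with Rpsa and Rplp0 to Rplp2. Rows with -ps in the symbol (5) and the Rps6k kinase genes (10) were left out, and the table held 32285 genes in all. Of the 86, 52 encode proteins of the large ribosomal subunit or close copies of them, 33 encode proteins of the small subunit or close copies, and 1, Rps19bp1, encodes a protein that binds Rps19 and is not part of the ribosome. The study compared testis cells of Znhit1 knockout (Znhit1_KO) and control (CTRL) mice at postnatal days 16 and 35, with 1 droplet library for each of Znhit1_KO at day 35, Znhit1_KO at day 16, CTRL at day 35 and CTRL at day 16. Znhit1 encodes a subunit of the SRCAP complex, which exchanges histone H2A for H2A.Z. The labels give no strain, allele, Cre driver or number of animals for either genotype. Counts came from the Znhit1_KO library at day 35, and those of the other 3 were not analysed here. All values below are therefore from 1 knockout library with no replicate and no control beside it. The comparisons are between cell classes within it, and nothing here bears on what the knockout changed.

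A ribosome holds a large subunit, which joins amino acids, and a small subunit, which reads the mRNA, and each is built from ribosomal RNA and many proteins made in roughly equal numbers. The mRNAs of these proteins are among the most abundant in growing cells and are known for moving together. Several ribosomal protein genes lie on the X chromosome, which is transcriptionally silenced in male germ cells at pachytene, the stage of meiosis when homologous chromosomes are fully paired. Autosomal copies of such genes exist in mammals. In the mouse, Rpl10l and Rpl39l are known as testis-enriched copies of the X-linked genes Rpl10 and Rpl39, and Rpl10l is known to be needed for male meiosis. The protein encoded by Rpl10 is added late in the assembly of the large subunit, and that encoded by Rpl39 lines the tunnel through which the new protein leaves.

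Rpl39l lies on chromosome 16 (10170226 to 10174911, plus strand) and Rpl39 on the X chromosome (37082520 to 37085402, minus strand) in mm10. Their coding sequences are shown because the balance between the 2 mRNAs differed widely between germ clusters. Both were taken from GENCODE transcripts, run from the start codon through the stop codon and have 156 bases. Capitals mark the 23 bases at which they differ.
Rpl39l: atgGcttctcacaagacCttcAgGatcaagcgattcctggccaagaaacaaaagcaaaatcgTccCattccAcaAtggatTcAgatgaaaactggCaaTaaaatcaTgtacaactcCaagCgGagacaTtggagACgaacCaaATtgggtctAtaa
Rpl39: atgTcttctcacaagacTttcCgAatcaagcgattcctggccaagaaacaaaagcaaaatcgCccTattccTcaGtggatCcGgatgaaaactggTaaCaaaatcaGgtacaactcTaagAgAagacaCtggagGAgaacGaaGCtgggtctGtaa
The Rpl39l and Rpl39 coding sequences were 85.3% identical. Rpl10l (chromosome 12, 66283379 to 66284401, minus strand) and Rpl10 (X chromosome, 74270812 to 74273135, plus strand) shared 547 of 645 coding bases (84.8%). Rpl36al (chromosome 12, 69182731 to 69184083, minus strand) and the X-linked Rpl36a (134585654 to 134588062, plus strand) shared 282 of 321 (87.9%). The assay reads the 3′ end of each mRNA, so the last 300 bases of 1 annotated transcript a gene were also compared with all other annotated transcripts in windows of 60 bases. For Rpl10l and Rpl39l 0 of 241 windows occurred in any other gene. For Rpl39 33 of 241 did, and for Rps4x 118. For Rpl10 and Rpl36a all 241 did, with pseudogenes such as Rpl10-ps3 and Rpl36a-ps1, so the level of those 2 genes may be counted in part elsewhere or lost. Among the 86 genes 28 had no shared window and 39 shared over 50% of them. The sources used here do not say how reads with several matches were handled.

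The promoters of the 2 pairs are shown because the copy and its X-linked form differed in opposite directions between pachytene-like and early-prophase-like cells. Each runs from 250 bases before the RefSeq start of the gene through the first 30 bases from that start, on build GRCm38.p6. The RefSeq start lies within 4 bases of the annotated gene bounds above for Rpl10l, Rpl10 and Rpl39l. For Rpl39 it is base 37085222 of the X chromosome, 180 bases inside those bounds, so that its window includes part of the annotated gene. Capitals mark 2 short motifs on either strand: CTTCCG, a core that ETS family factors bind, and TAACNG, a core that MYB family factors bind.
Rpl10l, chr12:66284372-66284651, minus strand: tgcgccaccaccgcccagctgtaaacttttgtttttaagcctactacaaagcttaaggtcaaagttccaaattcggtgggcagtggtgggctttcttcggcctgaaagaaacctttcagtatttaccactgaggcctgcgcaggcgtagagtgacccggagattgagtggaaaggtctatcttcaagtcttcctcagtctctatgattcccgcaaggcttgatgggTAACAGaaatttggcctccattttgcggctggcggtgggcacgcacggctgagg
Rpl10, chrX:74270566-74270845, plus strand: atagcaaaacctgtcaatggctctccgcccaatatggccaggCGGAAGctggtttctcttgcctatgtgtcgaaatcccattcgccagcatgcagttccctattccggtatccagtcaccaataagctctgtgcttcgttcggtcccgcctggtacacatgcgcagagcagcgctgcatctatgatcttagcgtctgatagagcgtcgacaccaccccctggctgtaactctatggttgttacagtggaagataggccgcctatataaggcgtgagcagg
Rpl39l, chr16:10169978-10170257, plus strand: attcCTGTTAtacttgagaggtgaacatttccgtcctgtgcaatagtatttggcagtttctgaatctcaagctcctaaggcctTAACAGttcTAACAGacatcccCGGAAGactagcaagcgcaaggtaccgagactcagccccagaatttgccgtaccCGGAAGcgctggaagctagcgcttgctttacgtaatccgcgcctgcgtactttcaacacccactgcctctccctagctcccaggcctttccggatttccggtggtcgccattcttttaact
Rpl39, chrX:37085193-37085472, minus strand: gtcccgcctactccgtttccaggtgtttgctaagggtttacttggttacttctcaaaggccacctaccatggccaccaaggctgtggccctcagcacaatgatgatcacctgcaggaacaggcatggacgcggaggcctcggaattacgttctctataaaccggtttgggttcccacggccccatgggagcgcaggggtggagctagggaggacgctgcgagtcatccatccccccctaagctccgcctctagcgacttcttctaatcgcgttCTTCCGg
Rpl10l held 1 TAACNG, 24 bases before its RefSeq start, and no CTTCCG. Rpl10 held 1 CTTCCG, 208 bases before its RefSeq start, and no TAACNG. Rpl39l held both motifs in the printed stretch, CTTCCG at 145 and 91 bases before its RefSeq start and TAACNG at 246, 167 and 158. Rpl39 held CTTCCG, beginning at base 24 counted from its RefSeq start, and no TAACNG. Promoters of 300 bases were at hand for 66 of the 86 genes. CTTCCG occurred in 44 of them (66.7%), against 18.8% of 27025 genes with a promoter, and TAACNG in 12 (18.2%), against 25.9%. A run of at least 8 pyrimidines within 20 bases of the start, on either side of it, occurred in 30 (45.5%), against 18.4%. A pyrimidine tract at the first base is known from mRNAs whose translation depends on growth signals. The run counted here may lie before the start, so it is not a count of such mRNAs. These letter matches are not evidence of binding.

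The library held 15306 barcodes and 72459160 UMIs, of which the 86 genes took 7.38%. After filters 7856 cells with 48553315 UMIs remained, with a median of 4607 UMIs a cell. Cells were grouped without the 86 genes, and clusters were named from marker genes as spermatogonium-like (1585 cells), early-prophase-like (2361 cells), pachytene-like (451 cells) and 7 somatic classes (2590 cells). A further 869 cells stayed unnamed. Germ clusters are numbered within a stage by falling spermatogonium marker score and then by rising pachytene marker score, an order by markers and not by measured time. Spermatogonium cluster 3 is the weakest of these names: its 10 leading genes held 0 spermatogonium markers, 4 haemoglobin genes and 1 marker of late spermatocytes, Plk1, so results on spermatogonia are also given without its 529 cells. Early-prophase cluster 3 and both pachytene clusters had none of their own markers among their 10 leading genes either, and none of another class. Levels are given as CPM, the UMIs of a gene per 1000000 UMIs of the class, with no division by length since the assay counts 1 tag a molecule. Znhit1 had 2.49 CPM in germ-cell-like cells (95% interval 1.97 to 3.10), against 15.8 CPM in somatic-like cells (13.9 to 18.0). The sources used here do not say which part of the gene was deleted, so a 3′ count does not check the label. Between 45 and 81 barcodes were shared by any 2 of the libraries. All intervals are 95% and cover counting error alone, and ratios rest on cell classes of the same library.

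RNA of other cells bears on low values. Summed Leydig, macrophage, stromal and myoid marker lists stood in germ-cell-like cells at 2.47% to 3.17% of their somatic level. Early-prophase and pachytene marker lists stood in somatic-like cells at 6.77% and 11.3% of their germ level. Levels near these shares cannot be told apart from RNA carried between droplets.

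Ribosomal protein mRNAs filled the largest share of germ cell RNA in spermatogonia and a much smaller one from early meiotic prophase on. They made up 10.6% of UMIs in spermatogonium-like cells, 6.06% in early-prophase-like cells and 6.63% in pachytene-like cells. Their intervals were 10.57% to 10.61%, 6.05% to 6.08% and 6.62% to 6.65%. The early-prophase share was 0.573 of the spermatogonial one (0.571 to 0.574), or 1.75-fold lower. Single cells spread widely around these means: the 10th to 90th percentiles were 7.91% to 14.0% in spermatogonium-like, 4.33% to 8.32% in early-prophase-like and 4.89% to 8.86% in pachytene-like cells. The median spermatogonium-like cell carried 695 such UMIs, the median early-prophase-like cell 275 and the median pachytene-like cell 889. Median totals in these cells were 6829, 4520 and 13406 UMIs. The median number per cell was thus largest in the pooled pachytene class although its share was low. By cluster it was 1342.5, 759 and 389 in spermatogonium clusters 1 to 3, and 691 and 1517.5 in pachytene clusters 1 and 2. Pachytene cluster 1 therefore lay below spermatogonium clusters 1 and 2.

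**Figure D1:**
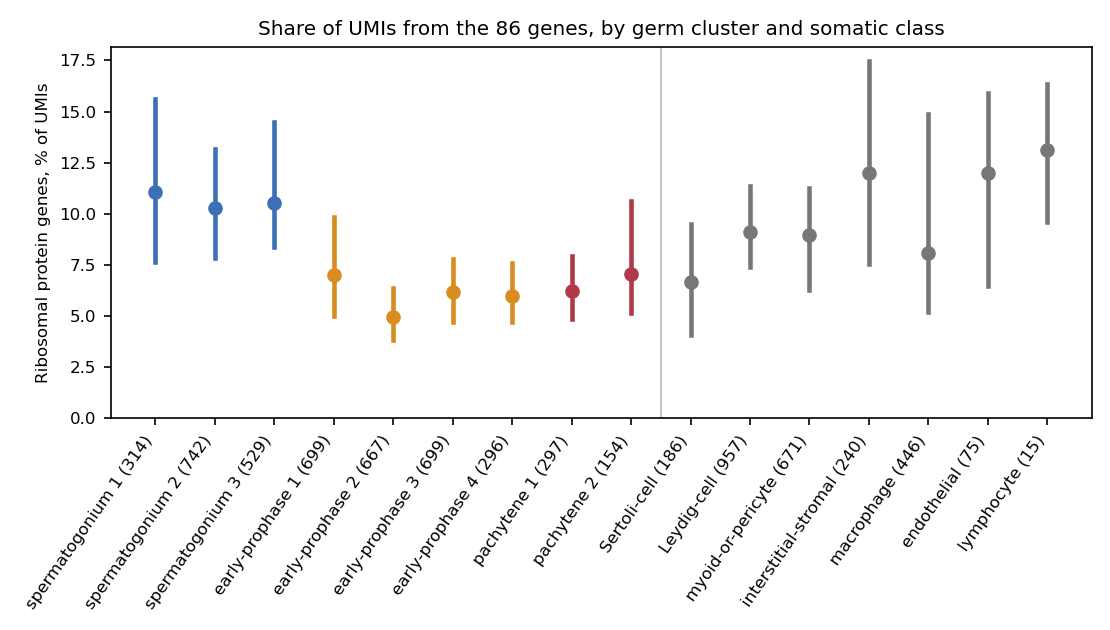
Share of UMIs from the 86 genes (y axis, percent) in the 9 germ clusters in marker order and, right of the grey line, 7 somatic classes, with cell numbers in brackets, where dots are the summed share and bars span the 10th to 90th percentile of single cells. The 3 spermatogonium clusters lie at 10.3% to 11.1% and the 6 later germ clusters at 4.98% to 7.08%.

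By cluster, the share was 11.1%, 10.3% and 10.5% in spermatogonium clusters 1 to 3. It was 7.03%, 4.98%, 6.18% and 5.98% in early-prophase clusters 1 to 4, and 6.21% and 7.08% in pachytene clusters 1 and 2. None of the 6 later clusters reached the lowest spermatogonial one. Early-prophase cluster 2, led by Zcwpw1 and Terb1, which act in recombination and telomere attachment, had the lowest share. Spermatogonium cluster 3 and early-prophase clusters 2 and 3 carried haemoglobin mRNAs at 560, 382 and 311 CPM, against 4.10 to 12.9 CPM in the other 6 germ clusters. The clusters low in haemoglobin showed the gap too, with 11.1% and 10.3% in spermatogonium clusters 1 and 2 and 7.03%, 5.98%, 6.21% and 7.08% in early-prophase 1 and 4 and both pachytene clusters. Without spermatogonium cluster 3, the ratio of early prophase to spermatogonia was 0.572. Mitochondrial transcripts made up 6.52%, 6.18% and 3.08% of UMIs in the 3 stages. With nuclear genes alone as the denominator the ratio of early prophase to spermatogonia was 0.571.

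Pachytene-like cells had 1.09 times the early-prophase share (1.09 to 1.10), a small difference that turned round under another filter: with cells from 500 UMIs on the ratio was 0.936. Under that filter the classes were drawn differently, with 3173 early-prophase-like and 702 spermatogonium-like cells. Germ-cell-like cells as a whole had 7.94% and somatic-like cells 8.93%, a ratio of 0.889 (0.887 to 0.891), and this too was not stable, since allowing 20% mitochondrial UMIs gave 1.05. The somatic classes spanned a wider range than that difference. Sertoli-like cells had 6.64%, macrophage-like 8.11%, myoid-or-pericyte-like 8.95%, Leydig-like 9.12%, interstitial-stromal-like 11.99%, endothelial-like 12.02% and the 15 lymphocyte-like cells 13.1%. Classes were not uniform either. Of the 2 macrophage-like clusters, the one led by antigen presentation genes such as H2-Aa and Cd74 had 13.8% and the one led by F13a1 and Folr2 had 6.89%, and the 2 Sertoli-like clusters had 8.07% and 5.33%.

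Of the 73 autosomal members that are neither named copies nor Rps19bp1, 71 were lower in early-prophase-like than in spermatogonium-like cells. Of all 86 members 78 were, against 9180 of the 15973 genes tested (57.5%). The median log2 ratio was -0.79, against -0.23 over all genes tested. At least 2-fold lower were 29 genes, and 0 were at least 2-fold higher. Among all genes tested 28.8% were lower and 14.1% higher by that measure, so the share of members past 2-fold lower was near that of all genes, and what the members show is many modest decreases and no increase past 2-fold. Autosomal members gave 28 of 82 lower and 0 higher, against 29.1% and 13.9% of autosomal genes. Relative to the median of all genes, 72 of the 86 were lower, 20 of them at least 2-fold, and the median was -0.56. Without spermatogonium cluster 3, 77 were lower, 29 of them at least 2-fold, with 29.9% of all genes past that measure. With cells from 500 UMIs on, 79 were lower, 16 of them at least 2-fold. Large and small subunit genes moved alike, with medians of -0.83 (17 of 52 at least 2-fold lower) and -0.78 (12 of 33).

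Rps3, a small subunit protein at the site where mRNA enters, had the lowest ratio. It stood at 1133, 928 and 793 CPM in spermatogonium clusters 1 to 3, at 350, 172, 230 and 237 CPM in early-prophase clusters 1 to 4 and at 358 and 498 CPM in the pachytene clusters. All later clusters lay below all spermatogonial ones. Pooled, Rps3 had 249 CPM in early-prophase-like cells, against 974 CPM in spermatogonium-like cells, a ratio of 0.255 (0.245 to 0.266). In pachytene-like cells Rps3 had 426 CPM, 1.71 times its early-prophase level. The X-linked Rpl36a had a ratio of 0.303 (0.287 to 0.320) between early-prophase-like and spermatogonium-like cells. Among the members that were not lower, Rps27l, a close copy of the small subunit gene Rps27, was the highest at 1227 CPM in early-prophase-like cells, against 808 CPM in spermatogonium-like cells (ratio 1.52, 1.48 to 1.56), the only member past 1.5-fold upward.

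**Figure D2:**
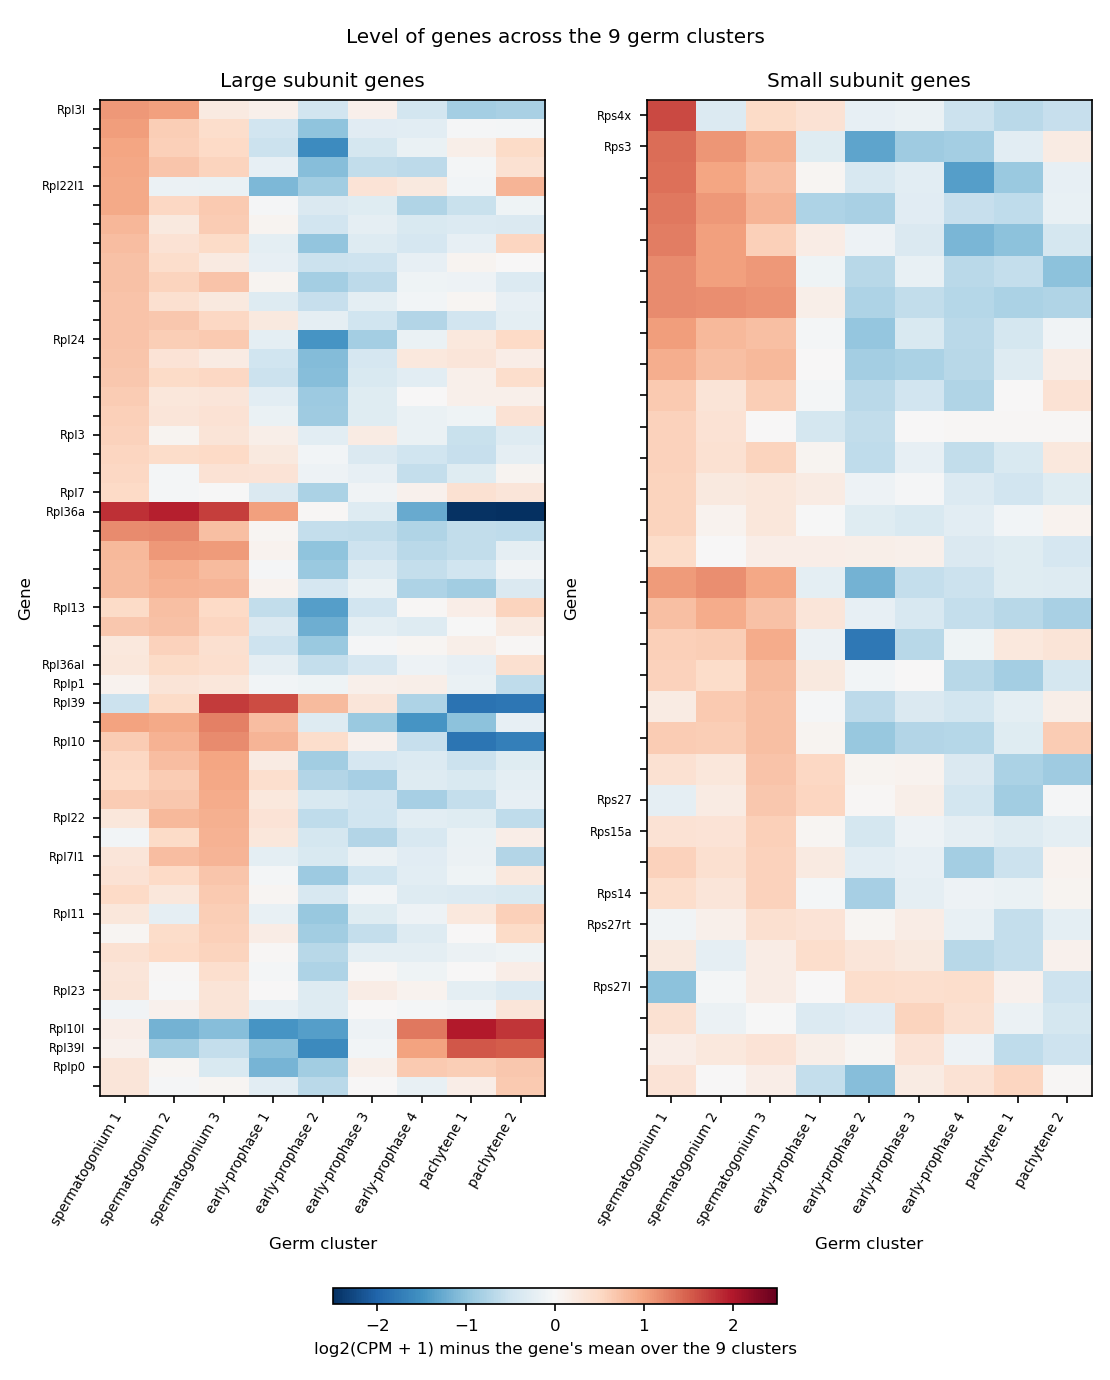
Level of 52 large and 32 small subunit genes, 1 a row with those named in the text labelled, across the 9 germ clusters, as log2(CPM + 1) minus the gene's own mean over the clusters (colour scale, blue low, red high). Most rows are red in the 3 spermatogonium clusters and palest or blue in early-prophase cluster 2, while Rpl10l and Rpl39l are red in the pachytene clusters and Rpl10, Rpl39 and Rpl36a blue there.

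At some steps from cluster to cluster most of the genes moved in 1 direction. Counts are over the 85 or 86 with at least 20 UMIs in the 2 clusters compared. In early-prophase cluster 1, against spermatogonium cluster 3, 84 of the 85 were lower, with a median ratio of 0.673, beside 58.2% of all genes and a median of 0.889. Against spermatogonium cluster 2 instead, 74 of 86 were lower, with a median of 0.715, beside 60.8% of all genes and a median of 0.818. In early-prophase cluster 2, against cluster 1, 79 of 85 were lower, with a median of 0.696, beside 49.9% of all genes and a median of 1.0004. In early-prophase cluster 3, against cluster 2, 67 of 85 were higher, with a median of 1.24, beside 6671 of 11584 genes and a median of 1.10. The other steps were less one-sided. In spermatogonium cluster 2, against cluster 1, 54 of 86 were lower, beside 52.5% of all genes. Spermatogonium cluster 3, against cluster 2, had 56 of 86 higher, beside 5532 of 12793 genes. Early-prophase cluster 4, against cluster 3, had 49 of 85 lower, beside 64.6% of all genes. Pachytene clusters 1 and 2, each against the cluster before, had 53 and 59 of 85 higher, beside 5456 of 10842 and 5441 of 11719 genes. Of the 86 genes, 44 had their lowest level in early-prophase cluster 2, and 36, 13 and 27 had their highest in spermatogonium clusters 1, 2 and 3. With cluster 3 left out, 45 and 24 had it in spermatogonium clusters 1 and 2. No such count was made over all genes, so these numbers have no background beside them. The highest cluster exceeded the lowest by a median of 3.04-fold per gene, with a range of 1.56 to 22.4. The subunits parted later in prophase. Large subunit genes had 1.17 to 1.23 times the UMIs of small subunit genes in the 3 spermatogonium clusters and 1.18, 1.07 and 1.18 times in early-prophase clusters 1 to 3. In early-prophase cluster 4 and the 2 pachytene clusters they had 1.49, 1.58 and 1.51 times. Somatic classes lay between 1.19 and 1.29.

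At the step into pachytene the genes no longer moved mostly in 1 direction. Against early-prophase-like cells, 40 of the 86 were lower in pachytene-like cells, against 8933 of the 14843 genes tested (60.2%), and the median log2 ratio was 0.13, against -0.34 over all genes tested. At least 2-fold lower were 4 genes, Rpl36a, Rpl39, Rpl10 and Rpl3l, and at least 2-fold higher were 3, Rpl10l, Rpl39l and Rpl24. Rpl3l had 6 UMIs in pachytene-like cells. Among all genes tested 28.7% were lower and 18% higher by that measure, so few members changed by 2-fold beside the whole. Of the 82 autosomal members 1 was lower and 3 were higher, against 26.6% and 18.6% of autosomal genes. Relative to the median of all genes, 63 of the 86 were higher, 15 of them by 2-fold or more, and 3, all X-linked, were lower by 2-fold or more. Small subunit genes had a median of -0.11 and large subunit genes one of 0.25, a split that sums to 2.61% of UMIs for the small subunit in pachytene-like and 2.75% in early-prophase-like cells, and 4.02% and 3.31% for the large subunit. Rpl24, a large subunit protein, had 582 CPM in pachytene-like cells, against 287 CPM in early-prophase-like cells (ratio 2.03, 1.94 to 2.12). Spermatogonium-like cells had 701 CPM of it, above both. Its 3′ end shared 194 of 241 windows with other genes. Rplp0, a protein of the stalk that recruits elongation factors, had 3436 CPM in pachytene-like cells, against 1919 CPM in early-prophase-like cells. The pachytene level exceeded the 2311 CPM of spermatogonium-like cells.

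Set against spermatogonium-like cells directly, pachytene-like cells had 28 members lower by 2-fold or more and 2, Rpl10l and Rpl39l, higher, against 40.8% and 19.8% of all genes tested. The median was -0.58, near the -0.61 of all genes. Lower than in spermatogonium-like cells were 75 of the 86, against 64.5% of all genes tested. The members' summed share was 0.626 of the spermatogonial one. Their median was thus like that of all genes, but more of them were lower and fewer passed 2-fold in either direction. The genes tested were again not matched to the members for level. Autosomal members gave 24 of 82 lower and 2 higher, against 39.5% and 20.3% of autosomal genes, and X-linked members 4 of 4 lower and 0 higher, against 72.6% and 7.03% of X-linked genes.

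**Figure D3:**
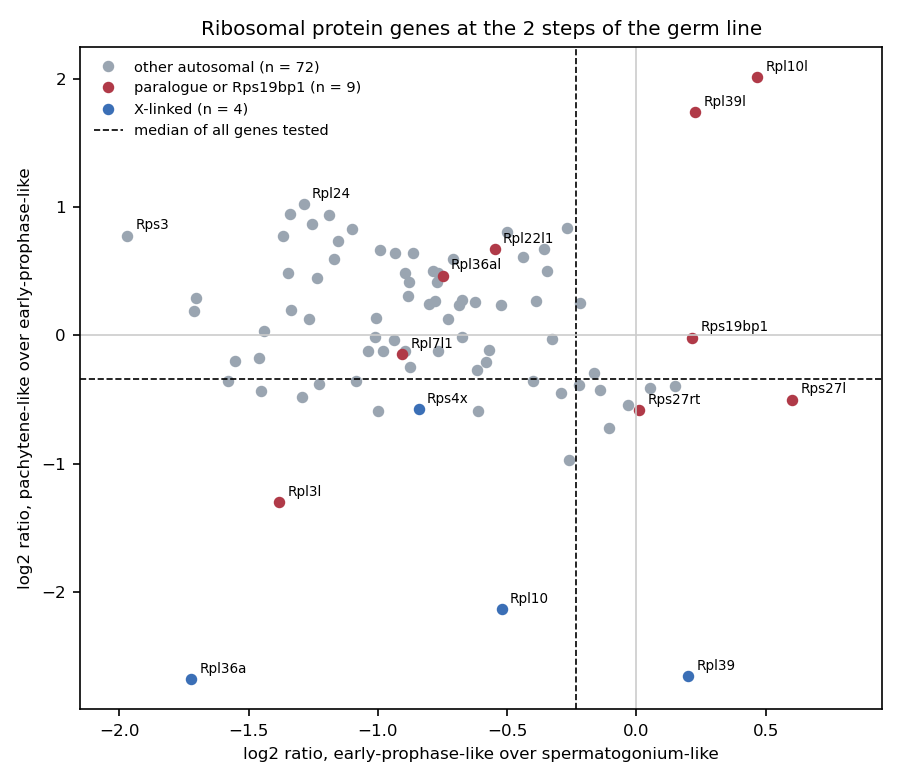
Log2 ratio of each of 85 genes at the step from spermatogonium-like to early-prophase-like cells (x axis) and from there to pachytene-like cells (y axis), with dashed lines at the medians of all genes tested, -0.23 and -0.34. Most grey points lie left of 0 on the x axis, Rpl10l and Rpl39l stand alone at the top right, and 3 of the 4 X-linked genes at the bottom.

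The 4 X-linked genes were low in pachytene-like cells. Their median log2 ratio of pachytene-like to early-prophase-like cells was -2.39, with 3 of 4 lower by 2-fold or more and 0 higher. Of 571 X-linked genes tested, 79.3% were lower and 4.9% higher by that measure and the median was -1.94, so the members' count was near that of their chromosome. Between early-prophase-like and spermatogonium-like cells 1 of 4 was lower by 2-fold or more and 0 higher, against 21.2% and 17.2% of X-linked genes. Measured against early-prophase cluster 4 alone, the median was -1.14.

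Rpl10 stood at 218, 258 and 321 CPM in spermatogonium clusters 1 to 3, at 254, 192, 151 and 94.2 CPM in early-prophase clusters 1 to 4, and at 39.0 and 42.4 CPM in the pachytene clusters. It was lower at every step after spermatogonium cluster 3 up to pachytene cluster 1. The ratio of pachytene-like to early-prophase-like cells was 0.228 (0.202 to 0.257), or 4.38-fold lower. Rpl39 followed the same course with 82.7, 168 and 408 CPM, then 374, 210, 149 and 69.9 CPM, and 32.5 and 33.9 CPM (pachytene-like 6.30-fold lower than early-prophase-like, 5.53 to 7.20). Rpl36a, whose protein sits where spent transfer RNA leaves the ribosome, had 458, 495 and 430 CPM, then 262, 132, 102 and 53.0 CPM, and 22.5 and 22.1 CPM (6.39-fold lower, 5.45 to 7.54). Its early-prophase-like level was already 3.30-fold below the spermatogonium-like one, against 1.79-fold for Rps4x. In pachytene-like cells Rpl10, Rpl39 and Rpl36a stood at 3.63%, 4.89% and 4.59% of their somatic-like level, close to the 1.87% to 3.48% at which somatic marker lists stood there.

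In each of the 3 pooled germ classes Rps4x, the X-linked gene of a small subunit protein, was at a smaller percentage of its somatic-like level than the other 3. It stood at 86.3, 48.1 and 32.3 CPM in the spermatogonium-like, early-prophase-like and pachytene-like classes, which are 6.60%, 3.68% and 2.47% of its 1307 CPM in somatic-like cells. Somatic marker lists stood at 2.42% to 2.97% of their somatic level in spermatogonium-like and at 2.62% to 4.07% in early-prophase-like cells, so in the 2 later stages Rps4x was within the range of these lists. Spermatogonium cluster 1 had the highest germ level, 161 CPM, above the 82.7 CPM of Rpl39 there, and spermatogonium cluster 2 had 39.7 CPM. Over germ-cell-like and somatic-like cells Rps4x was 22.1-fold lower (21.1 to 23.2). The autosomal mouse copy Rps4l was not analysed here.

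**Figure D4:**
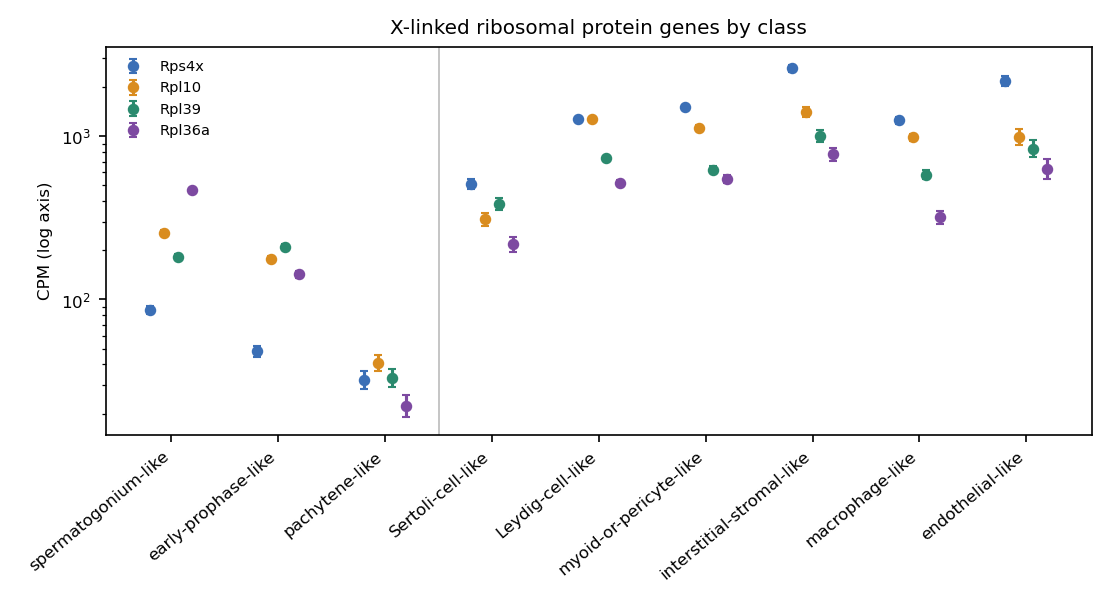
Level of the 4 X-linked ribosomal protein genes (CPM, log axis) in 3 germ classes and, right of the grey line, 6 somatic classes, with 95% Poisson intervals. In pachytene-like cells all 4 lie between 22.3 and 40.6 CPM, and Rps4x is lowest of the 4 in spermatogonium-like cells and highest or level with Rpl10 in the somatic classes.

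Rpl10l passed its X-linked form within prophase. Rpl39l, already the larger of its pair in spermatogonium clusters 1 and 2, was below Rpl39 in the 3 clusters after them and exceeded it again from early-prophase cluster 3 on. Rpl10l had 62.8, 23.9 and 26.0 CPM in spermatogonium clusters 1 to 3, 19.4, 20.7, 50.9 and 141 CPM in early-prophase clusters 1 to 4, and 223 and 194 CPM in the pachytene clusters. It passed Rpl10 in early-prophase cluster 4, where it made up 59.9% of the pair's UMIs (55.6% to 64.0%). In the order of the clusters its share of the pair was 22.4%, 8.50%, 7.50%, 7.09%, 9.77%, 25.1%, 59.9%, 85.1% and 82.1%. In pachytene-like cells it was 83.7% (82.0% to 85.4%), against 22.5% in early-prophase-like cells (21.0% to 24.1%). The sum of the 2 genes was 293, 230 and 250 CPM in the 3 stages, while somatic-like cells had 1126 CPM. Pachytene-like cells had 4.03 times the Rpl10l of early-prophase-like cells (3.68 to 4.43). A UMI is 1 captured molecule regardless of length, so the 2 genes of a pair are compared as UMIs. This holds only if both 3′ ends are captured and assigned alike, which was not tested. All 241 windows of the Rpl10 3′ end occurred in other genes, and 0 of those of Rpl10l did. Any loss of Rpl10 reads would raise the share of Rpl10l.

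Rpl39l was more abundant than Rpl10l in each of the 9 germ clusters. It had 380, 192 and 232 CPM in spermatogonium clusters 1 to 3, 172, 116, 339 and 709 CPM in early-prophase clusters 1 to 4, and 1039 and 1018 CPM in the pachytene clusters. Its share of the pair was 82.1%, 53.3% and 36.3% in spermatogonia, 31.5%, 35.6%, 69.5% and 91.0% in early prophase and 97.0% and 96.8% in pachytene clusters. Over spermatogonium clusters 1 and 2 alone it was 66.9%. Both copies had a dip in the middle: spermatogonium cluster 1, led by Sall4, Trim71 and Glis3, carried more of each than every cluster from spermatogonium cluster 2 to early-prophase cluster 3. Pachytene-like cells had 3.34 times the Rpl39l of early-prophase-like cells (3.21 to 3.48), and the sum of the pair was 1062 CPM, against 517 CPM in early-prophase-like cells. The Rpl10 pair, at 250 CPM and 230 CPM, differed far less.

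**Figure D5:**
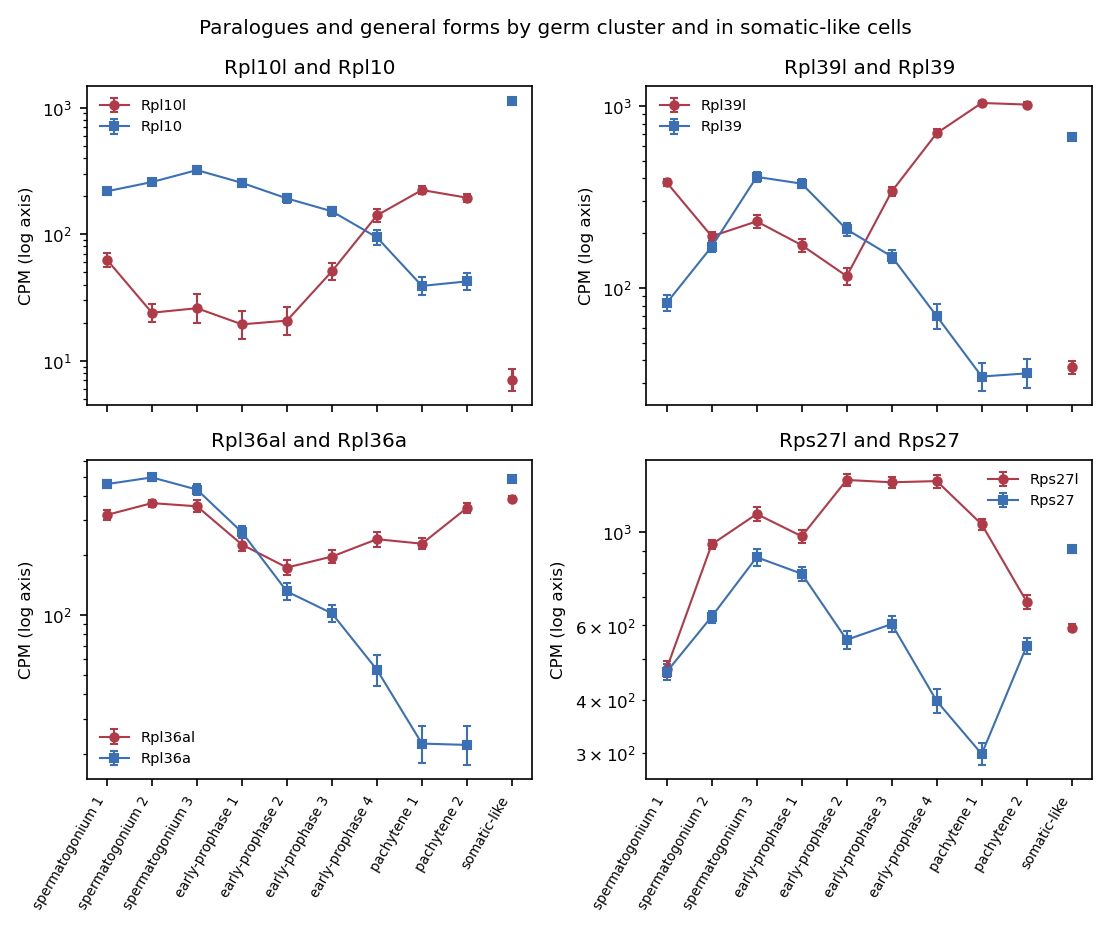
Level (CPM, log axis) of 4 paralogues (red circles) and their general forms (blue squares) across the 9 germ clusters in marker order, with somatic-like cells at the right, and 95% Poisson intervals. Rpl10l crosses Rpl10 between early-prophase clusters 3 and 4, Rpl39l, above Rpl39 in spermatogonium clusters 1 and 2, passes it again between early-prophase clusters 2 and 3, and Rpl36a, unlike Rpl36al, is at 22.1 CPM in the last cluster.

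Outside the germ line both copies were scarce. In somatic-like cells Rpl10l was 0.627% (0.513% to 0.759%) of its pair and Rpl39l 5.11% (4.70% to 5.55%). Their CPM there, 7.06 and 36.5, was 8.49% and 7.95% of the germ level, and the germ gene Ldhc stood at 8.64%, so these levels cannot be told apart from carried germ cell RNA. With every cell thinned to 2000 UMIs, Rpl10l was seen in 33.8% of 447 pachytene-like cells and 1.56% of 2306 somatic-like cells, and Rpl39l in 86.6% and 7.68%. Unthinned, those shares were 89.4% and 3.78% for Rpl10l, and 98.4% and 17.0% for Rpl39l, at median depths of 13406 and 4236 UMIs. Rpl10 was seen in 5.59% of thinned pachytene-like cells and 84.3% of somatic-like cells, and unthinned in 38.1% and 93.7%.

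Other copies were less tied to one stage. Rpl36al had 320 to 367 CPM in the spermatogonium clusters, 174 to 241 CPM in early prophase and 229 and 347 CPM in pachytene clusters 1 and 2. Pooled, it had 287 CPM in pachytene-like cells, between the 349 CPM of spermatogonium-like and the 207 CPM of early-prophase-like cells. Its 92.8% share of the Rpl36a pair in pachytene-like cells (59.3% in early-prophase-like and 44.3% in somatic-like cells) came with Rpl36a at 22.3 CPM. The sum of that pair was 309 CPM in pachytene-like cells, against 820 CPM in spermatogonium-like cells. The 3′ end of Rpl36al shared 166 of 241 windows with other genes and that of Rpl36a all 241, so the shares of this pair carry the same limit. Rps27l was highest in early-prophase clusters 2 to 4, at 1327, 1309 and 1318 CPM, with 976 CPM in early-prophase cluster 1. It had 474, 933 and 1102 CPM in spermatogonium clusters 1 to 3 and 1041 and 683 CPM in pachytene clusters 1 and 2. It was 63.5% of its pair with Rps27 in germ-cell-like and 39.5% in somatic-like cells.

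Rpl22l1, a copy of the large subunit gene Rpl22, ranged from 8.27% of its pair in early-prophase cluster 1 to 41.0% in pachytene cluster 2, and was 34.6% in somatic-like cells. Rpl7l1, a copy of Rpl7 known from ribosome assembly, was highest in spermatogonium cluster 3 (19.7% of its pair) and lowest in pachytene cluster 2 (6.11%). Rpl3l, known as the striated muscle form of Rpl3, had at most 5.73 CPM in any germ cluster and at most 0.801% of its pair. Its germ-to-somatic ratio of 7.103 (3.14 to 19.9) rests on 93 germ and 6 somatic UMIs, and its pachytene ratio on 6 UMIs, with an interval that includes 1 (0.136 to 1.02). Rps27rt was 3.29% of its pair with Rps27 in germ-cell-like and 3.12% in somatic-like cells. Its 3′ end shared 212 of 241 windows with other genes, most often Rps27, so its level cannot be told apart from misassigned Rps27 reads.

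Over all germ-cell-like against all somatic-like cells the paralogues and X-linked genes held the extremes. Higher at least 2-fold were Rpl39l (12.6-fold, 11.5 to 13.7), Rpl10l (11.8-fold, 9.68 to 14.5) and Rpl3l, 3 of 86. Lower at least 2-fold were Rps4x, Rpl10 (6.37-fold, 6.18 to 6.57), Rpl39 (4.31-fold, 4.17 to 4.46), Rpl11 (2.06-fold, 2.03 to 2.10) and Rpl36a (2.02-fold, 1.96 to 2.09), 5 of 86. Among the 18393 genes tested 39.8% were higher and 25.5% lower by that measure. Autosomal members gave 3 of 82 higher and 1 lower, against 40% and 25.1% of autosomal genes, and X-linked members 0 higher and 4 of 4 lower, against 33.7% and 36.5% of X-linked genes. The other members varied little: the 73 autosomal genes other than the named copies and Rps19bp1 had ratios from 0.485 to 1.68, with a median of 0.886. Relative to the median of all genes, which was 0.52 on the log2 scale, 80 of the 86 were lower in germ-cell-like cells, 18 of them by 2-fold or more, and 3 were higher by 2-fold or more. Without that adjustment 53 of 86 were lower, against 7352 of the 18393 genes tested. The 4 X-linked genes summed to 0.0633% of UMIs in germ-cell-like and 0.359% in somatic-like cells. Rps19bp1 was 52.1 CPM in germ-cell-like cells, against 32.3 CPM in somatic-like cells (1.61-fold).

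The most abundant members in germ-cell-like cells were Rplp1 (2556 CPM), Rplp0 (2425 CPM), Rps14 (2255 CPM), Rpl13 (2149 CPM) and Rps15a (1909 CPM). In somatic-like cells they were Rps14 (3438 CPM), Rplp1 (2320 CPM), Rpl13 (2279 CPM), Rpl23 (2260 CPM) and Rplp0 (1996 CPM), so 4 genes were among the 5 highest in both. Rplp1 and Rplp0 belong together to the stalk, yet went apart at the end of the series. Rplp1 had 2242 and 1609 CPM in pachytene clusters 1 and 2, and Rplp0 had 3351 and 3526 CPM. The 3′ end of Rplp1 shared 148 of 241 windows with another gene and that of Rplp0 shared 0, so the 2 levels may not be measured alike. Rpl13, a large subunit protein, stood at 2870, 1258 and 2416 CPM in the spermatogonium-like, early-prophase-like and pachytene-like classes.

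Other parts of the translation machinery are set here against all genes tested, of which 28.8% were at least 2-fold lower and 14.1% higher in early-prophase-like than in spermatogonium-like cells, with a median log2 ratio of -0.23. Fau, which encodes a small subunit protein fused to a ubiquitin-like one, had 634 CPM in early-prophase-like cells, against 1155 CPM in spermatogonium-like cells (ratio 0.549, 0.534 to 0.564). Rack1, a scaffold protein of the small subunit, had 374 CPM in early-prophase-like cells, against 718 CPM in spermatogonium-like cells (ratio 0.520, 0.502 to 0.539). Mitochondrial ribosomal protein genes, which serve the separate ribosomes of that organelle, had a median of -0.48, with 17 of 78 lower by 2-fold or more and 1 higher, Mrpl27 (43.6 CPM in early-prophase-like cells, against 20.9 CPM in spermatogonium-like cells). Of 40 genes of ribosome biogenesis 14 were lower by 2-fold or more and 0 higher (median -0.60), and Ncl, a nucleolar protein, had 1286 CPM in early-prophase-like cells, against 1744 CPM in spermatogonium-like cells. The count of mitochondrial ribosomal protein genes past 2-fold lower was thus below the share of all genes, and that of biogenesis genes somewhat above it. The list of elongation factors also held genes that are not such factors themselves, among them Tpt1 and Eef2k. This list had a median of -0.87 over 10 genes, 4 of them lower by 2-fold or more. Within it Eef1a1, which brings transfer RNA to the ribosome, had 1330 CPM in early-prophase-like cells, against 2466 CPM in spermatogonium-like cells. Initiation factors had a median of -0.15 over 31 genes, with 8 lower by 2-fold or more and 1 higher, a count and a median near those of all genes. Their highest ratio was that of Eif2s2, with 940 CPM in early-prophase-like cells, against 380 CPM in spermatogonium-like cells.

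Between pachytene-like and early-prophase-like cells 28.7% of all genes tested were at least 2-fold lower and 18% higher, with a median of -0.34. Ribosome biogenesis genes gave 10 of 40 lower and 3 higher by that measure (median -0.46), near all genes. Their summed share was 0.429% of UMIs in pachytene-like cells, against 0.580% in early-prophase-like cells. The X-linked Dkc1, a component of the complex that modifies ribosomal RNA, was the lowest with 3.58 CPM in pachytene-like cells, against 32.6 CPM in early-prophase-like cells. Sbds, which helps release the finished large subunit, was the highest with 146 CPM in pachytene-like cells, against 33.5 CPM in early-prophase-like cells. The elongation factor list gave 0 of 10 lower and 2 higher (median 0.44). Within this list Eef1a1 was the highest with 2967 CPM in pachytene-like cells, against 1330 CPM in early-prophase-like cells. Tpt1, not itself an elongation factor, was the lowest with 973 CPM in pachytene-like cells, against 1722 CPM in early-prophase-like cells. Initiation factors gave 4 of 31 lower and 3 higher (median 0.02). Eif3k, a subunit of the complex that binds the small subunit, had the highest ratio, with 253 CPM in pachytene-like cells, against 98.3 CPM in early-prophase-like cells. The X-linked Eif1ax, which helps scan for the start codon, had the lowest, with 15.1 CPM in pachytene-like cells, against 136 CPM in early-prophase-like cells. Of all X-linked genes tested 79.3% were at least 2-fold lower at this step. Eif1, which helps select the start codon, was the most abundant, with 2818 CPM in pachytene-like cells, against 1112 CPM in early-prophase-like cells. Of 12 regulators of ribosomal protein mRNAs 11 were measured, 4 lower and 2 higher by 2-fold or more in early-prophase-like cells. The highest, Larp1b, had 798 CPM in early-prophase-like cells, against 173 CPM in spermatogonium-like cells (4.63-fold, 4.41 to 4.85). In pachytene-like cells, against early-prophase-like cells, 6 of the 11 were lower by 2-fold or more and 0 higher (median -1.002). Larp1, the relative of Larp1b known for binding mRNAs with pyrimidine starts, had the highest ratio there, with 292 CPM in pachytene-like cells, against 163 CPM in early-prophase-like cells.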

How the data were processed

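Per the file headers, the deposited counts are whole-number UMI counts per gene and barcode written by Cell Ranger 7.1.0, and the submitters' processing notes name STAR and the build mm10. Barcodes were kept from 500 genes and 1000 UMIs on where mitochondrial genes took no more than 10% of UMIs (8121), and 265 doublets called by Scrublet were removed. The 86 genes, related translation genes and X, Y and mitochondrial genes (2079 in all) were left out of clustering, so that cells were not grouped by what is described. Clustering used scanpy 1.11.5 with 3000 variable genes, 30 components, 15 neighbours and Leiden resolution 1 (leidenalg 0.10.2). Clusters were named from marker lists by a score of at least 0.25 and at least 3 markers 2-fold up, and clusters under 10 cells or of low median depth stayed unnamed, a rule set after the clusters were seen.

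UMIs were summed per class, with exact Poisson intervals for CPM, Clopper-Pearson intervals for shares and conditional binomial intervals for ratios, all 95% (scipy 1.17.1). Intervals cover counting error alone, and with 1 library there is no test between samples. A ratio needed at least 20 UMIs over both classes, and a count of 0 was set to 3 UMIs in ratios. The ratio code was tested on simulated data. The members, lists and comparisons were chosen with earlier results of these data known. Genes were named by rule: the paralogue pairs, the X-linked genes, Rps19bp1, the 5 of highest CPM in germ-cell-like and in somatic-like cells, the 3 largest ratios of at least 1.5-fold in each direction, and for each other list its extremes and most abundant gene. Some genes that this rule names are not reported here. Other cell filters, doublets kept, a finer clustering, equal weight for each cell, other denominators and scalings were tried as alternatives.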

Additional observations from a re-analysis of the deposited data

How the results depend on the processing

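With cells from 200 genes and 500 UMIs on, the ratio of ribosomal protein shares between pachytene-like and early-prophase-like cells turned to 0.936, and that between early-prophase-like and spermatogonium-like cells was 0.647, with 16 members at least 2-fold lower in early prophase. With at least 3000 UMIs, the pachytene ratio was 1.14, the early-prophase ratio 0.558 and the germ-to-somatic ratio 0.891. Allowing 20% mitochondrial UMIs turned the germ-to-somatic ratio to 1.05, with a pachytene ratio of 1.09 and an early-prophase ratio of 0.575. With doublets kept, the germ-to-somatic and early-prophase ratios were 0.891 and 0.575. Leiden resolution 2 gave a germ-to-somatic ratio of 0.868. Equal weight for each cell gave 0.846 for germ to somatic and 0.575 for early prophase. Nuclear genes alone as denominator gave 0.877, 1.06 and 0.571 for the germ-to-somatic, pachytene and early-prophase ratios. Against the last early-prophase cluster the pachytene ratio was 1.11 and the median log2 ratio of X-linked members -1.14. Scaling by the median ratio of all genes gave -2.05 for that median. The cause of these moves was not tested.

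Under the alternatives run, the count of members lower by 2-fold or more in pachytene-like cells, against early-prophase-like cells, was 3 to 5, and the pachytene shares of Rpl10l and Rpl39l in their pairs were 82.3% to 85.3% and 96.6% to 97.0%. Leaving out spermatogonium cluster 3, an alternative chosen after seeing the data, gave an early-prophase ratio of 0.572, with 77 members lower and 29 at least 2-fold. Under the other alternatives 72 to 80 members were lower in early prophase. No replicate could be left out, since there is 1 library. No paired analysis was possible because each group has 1 library and 1 count matrix was analysed. Depth limits Rpl3l, with 93 UMIs in germ-cell-like and 6 in somatic-like cells.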

Other observations

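The 869 cells left unnamed had a ribosomal protein share of 6.17%. The largest of their clusters, 644 cells led by Cst9 and Rhox8, which are Sertoli cell genes, had 7.04%, and the others had 4.48%, 4.71% and 6.27% in 114, 102 and 9 cells. Barcodes under 1000 UMIs, 3592 in all, had 6.87%. The 5 rows with -ps in the symbol held 3166 UMIs, and 2 of them held 0.

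Over 9 classes, all but the lymphocyte-like one, 31 of the 86 genes were highest in endothelial-like, 28 in interstitial-stromal-like, 18 in spermatogonium-like and 3 in pachytene-like cells. The lowest level was in early-prophase-like cells for 35 genes, in pachytene-like cells for 24 and in Sertoli-cell-like cells for 16. These counts too were not made over all genes. Of the 2 Sertoli-like clusters, that with 5.33% held 105 cells and that with 8.07% held 81, and the macrophage-like clusters of 13.8% and 6.89% held 128 and 318 cells.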
